A study of Mus musculus with 10 samples.

Results

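The genes described here were 8 markers that are used to tell apart macrophages living in a tissue and macrophages of the M2 type, namely Cadm1, Mertk, Zeb2, Cd53, Cx3cr1, Mrc1, Cd163 and Stab1. They were chosen by name, from the markers used for macrophage subsets in this study and from general knowledge, and were 8 of the 31053 genes counted. Single-cell RNA was measured in E0771 mammary carcinomas, a mouse breast cancer line, grown in the mammary fat pad of female C57BL/6 mice injected at 16 weeks of age and taken 21 days later. EC-AGO1-KO mice carried floxed AGO1 alleles and a Cre driven by the VE-Cadherin promoter, which is meant to delete AGO1 in endothelial cells alone, and their WT littermates served as controls. Tumor cells and macrophages were not the target of the deletion, and Ago1 in macrophages and monocytes, at 0 to 12.7 counts per 1000000 UMIs (CPM) in WT and 0 to 26.8 CPM in KO libraries, was too low to check them. There were 5 WT libraries from 5 tumors and 5 KO libraries from 7 tumors, because small KO tumors were pooled in pairs in the libraries KO 2+3 and KO 5+6. A first batch consisted of 1 library per genotype, and a second batch, run on another sequencer, of 4 per genotype.

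Macrophages of a tissue either descend from cells that settled there early and renew themselves, or arise from blood monocytes that enter later. Both are professional phagocytes, and the M2 label is used for a state with high scavenger and mannose receptor expression that is linked to wound repair and, in tumors, to a dampened immune response. Mertk recognizes phosphatidylserine on dying cells through bridging proteins, Mrc1 (CD206) is a mannose receptor, Cd163 takes up haptoglobin-bound hemoglobin, and Stab1 is a scavenger receptor also made by the endothelium of liver and lymphatic vessels. Cadm1 is an adhesion molecule of the immunoglobulin superfamily, Cd53 a tetraspanin of leukocytes, Cx3cr1 the receptor of fractalkine, and Zeb2 a zinc finger transcription factor used by myeloid cells and by mesenchymal cells.

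On the mm10 genome (GRCm38) Cadm1 lies at chr9:47530173-47857637 on the plus strand, Cx3cr1 at chr9:119901616-120069879 on the minus strand, Mertk at chr2:128698956-128802894 on the plus strand, Mrc1 at chr2:14229392-14332057 on the plus strand and Zeb2 at chr2:44983632-45117395 on the minus strand. Cd53 lies at chr3:106759921-106790149 on the minus strand, Cd163 at chr6:124304656-124330527 on the plus strand and Stab1 at chr14:31139013-31168641 on the minus strand. The transcribed spans run from 25.9 kb for Cd163 to 327 kb for Cadm1, against a median of 12.7 kb over all genes, and exons make up 3.19% of the span of Cadm1 and 34.7% of that of Stab1. The span is given because it is compared with the batch difference further on. The promoters of Mertk, Mrc1 and Stab1 are shown because these genes were all high in 1 group of macrophages. Each is the stretch of 120 bases that ends just before the start annotated in RefSeq on GRCm38.p6. The spans above come from another annotation, GENCODE. The Mrc1 window therefore runs past the start of its span, and the Mertk window ends short of it. The ETS core GGAA or its reverse complement TTCC is in capitals:
Mertk, chr2:128698795-128698914, plus strand: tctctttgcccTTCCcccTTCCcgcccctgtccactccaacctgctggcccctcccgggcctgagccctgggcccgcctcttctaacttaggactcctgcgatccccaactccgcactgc
Mrc1, chr2:14229294-14229413, plus strand: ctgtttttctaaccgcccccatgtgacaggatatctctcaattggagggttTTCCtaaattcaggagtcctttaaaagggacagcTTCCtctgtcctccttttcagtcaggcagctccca
Stab1, chr14:31168642-31168761, minus strand: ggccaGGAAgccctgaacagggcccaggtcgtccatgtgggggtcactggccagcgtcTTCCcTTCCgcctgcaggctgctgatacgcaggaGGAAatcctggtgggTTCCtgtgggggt
Such a core was present in at least 1 window of 7 of the 7 members with a promoter entry, and in 73.4% of 32851 promoters searched in the same way. The shares of all promoters count entries and not genes. The 7 members had 10 entries, and a Zeb2 window among them held 0 cores. The longer motif GAGGAAGT of PU.1, the ETS factor of myeloid cells, was looked for on both strands from 250 bases before to 50 bases after each start. It contains the ETS core. It was found in 1 of the 7 members and in 3.20% of all promoters. The match was in Cd53, the leukocyte tetraspanin, and is shown in capitals, as its reverse complement, within 30 bases:
Cd53, chr3:106790125-106790154, minus strand: cactcagtctcACTTCCTCactcttctcgc
The MAF half-site TGCTGAC was in 0 of the 7 members and in 4.67% of all promoters. These matches describe the letters of the windows and nothing about binding.

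Cells were barcodes in which 200 to 7000 genes were detected and mitochondrial RNA made up 10% or less of the UMIs (unique molecular identifiers, 1 for each RNA molecule captured), and 65298 barcodes met this. The libraries held 8323896 to 10591577 UMIs in all barcodes. The 2 libraries of batch 1 held 968 and 1194 cells with a median of 3862 and 4049 UMIs per cell, and the 8 of batch 2 held 6212 to 10190 cells with medians of 595 to 1142. No more than 28 barcodes (0.503%) were shared by any pair of libraries. Actb took 1.75% to 1.97% of the UMIs in batch 1 and 10.0% to 17.8% in batch 2. It is included in the UMIs per library and per cell given above. It was left out of the totals used for CPM, for the depth of a class and for the tests. Ago1 had 0 UMIs in the 77 endothelial-like cells of WT tumors and in the 132 of KO tumors, with upper limits of 59.5 and 43.3 CPM from exact Poisson intervals at 95% (CPM, counts scaled to 1000000 UMIs; counting error only), so the deletion could not be checked here.

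Clustering without the 8 genes gave 1693 macrophage-like cells, 698 from WT and 995 from KO tumors, with a median depth of 2770 UMIs in batch 1 and 274 in batch 2. All 12 macrophage markers of the naming list, among them C1qa, Csf1r and Adgre1, had UMIs in the class in both batches. There were also 422 monocyte-like, 376 dendritic-like, 1396 T-like, 424 B-like, 209 endothelial-like, 267 pericyte-like, 569 fibroblast-like and 436 epithelial-like cells, 55095 tumor-like cells and 4411 cells left unnamed. The largest dendritic-like group of batch 2 was led by Kit, with Mcpt4, Cma1 and Hdc, genes known from mast cells, also among its 10 leading genes, so dendritic-like levels of batch 2 may include RNA from another cell type. Levels below are in CPM of all UMIs of the class in a library. Beside them stands the level in barcodes with at most 50 UMIs, which hold free RNA and no cell. Classes are clusters of the same cells, so differences between classes are described and not tested.

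**Figure D1:**
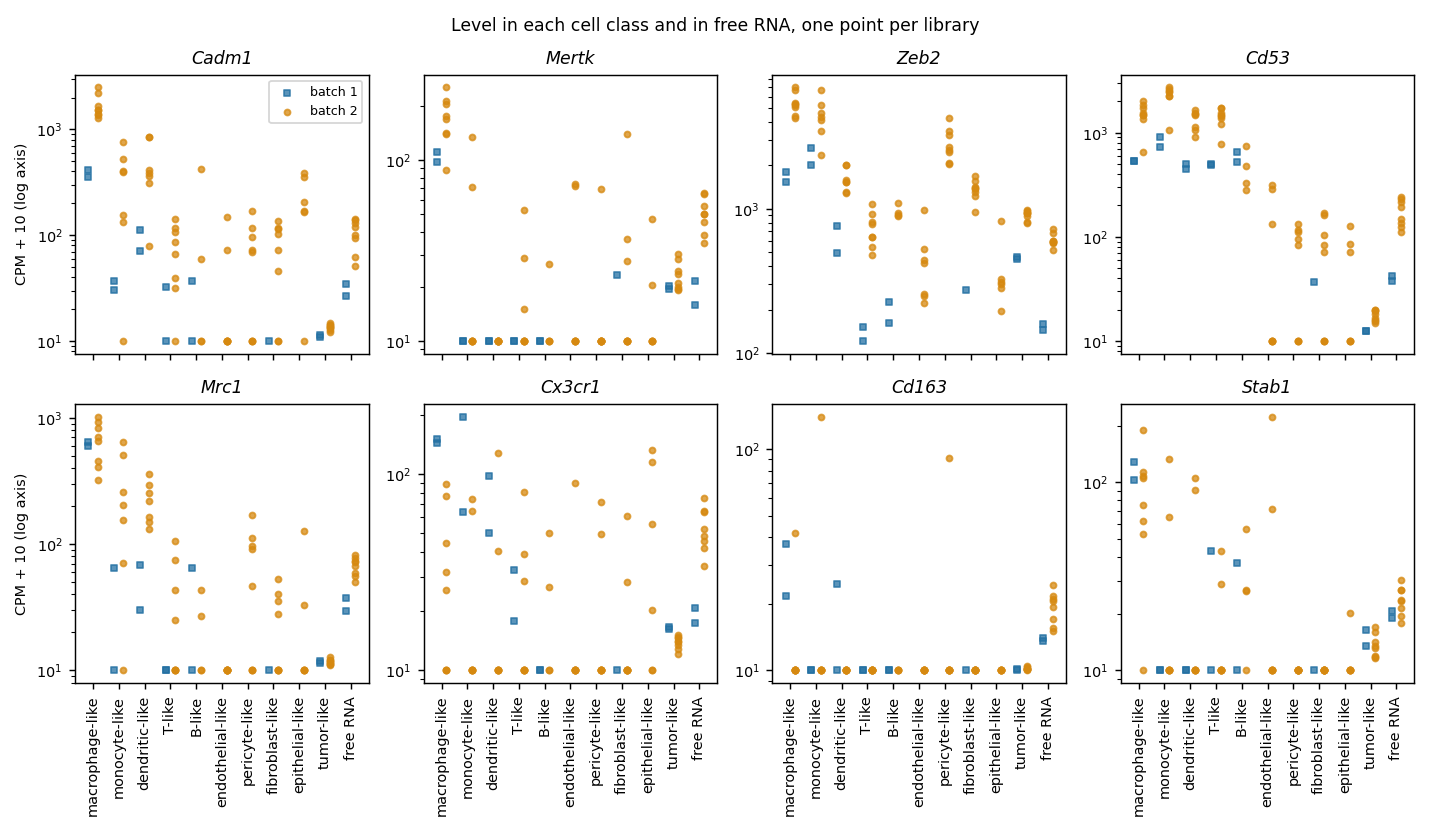
Level of each gene as CPM + 10 (log axis, so that 10 is a level of 0) in each cell class and in free RNA, with 1 point per library that had at least 10 cells of the class, as squares for batch 1 and circles for batch 2. Cadm1 and Mertk were highest in macrophage-like cells in every library, Cd53 was as high in monocyte-like and T-like cells, and Zeb2 was spread over all classes.

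By level per class, Cadm1 and Mertk were the most specific of the tissue-resident markers in these tumors, though most Mertk UMIs were in tumor-like cells. Cadm1 in macrophage-like cells was 406 CPM in the WT and 344 CPM in the KO library of batch 1. In batch 2 it was 1655, 2494, 2198 and 1374 CPM in WT 1, WT 3, WT 4 and WT 5, and 1515, 1519, 1279 and 1357 CPM in KO 1, KO 2+3, KO 4 and KO 5+6. The libraries of the 2 batches did not overlap, while within batch 2 the WT and KO values did. The mean of batch 2, 1674 ± 438 CPM (SD, n = 8), was followed by 456 ± 286 CPM in dendritic-like cells (n = 7) and 329 ± 259 CPM in monocyte-like cells (n = 7), and the range of the macrophage-like values lay above both. Free RNA held 94.99 ± 34.8 CPM (n = 8) and tumor-like cells 3.51 ± 0.804 CPM (n = 8). In all libraries with at least 10 cells of both classes, Cadm1 was higher in macrophage-like cells than in each other named class. Against monocyte-like cells, for example, this held in 9 of 9. WT 4 had 5 dendritic-like cells, too few to be counted here, with 5 Cadm1 UMIs (3181 CPM).

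Mertk, the receptor for dying cells, had few UMIs, 160 in the macrophage-like cells of batch 1 and 53 in those of batch 2. Its level was 101 CPM in the WT and 87.5 CPM in the KO library of batch 1. In batch 2 it was 195, 242, 129 and 158 CPM in the WT libraries and 165, 130, 202 and 78.3 CPM in the KO libraries, in the order given for Cadm1. The value of WT 4 rests on 1 UMI in 28 cells. The groups overlapped, and so did the batches. Free RNA of batch 2 held 40.6 ± 11.2 CPM (n = 8), and the classes next below, monocyte-like and fibroblast-like cells, had means at or under it. No dendritic-like cell had a Mertk UMI (0 of 376 cells, which allows a share of up to 0.798% of cells with a UMI). Tumor-like cells, at 13.2 ± 4.20 CPM in batch 2 (n = 8), were below free RNA. They made up 84.4% of the cells and held 68.1% of all 999 Mertk UMIs in cells, against 21.3% in macrophage-like cells. The batches differed in this, with 58.6% of the Mertk UMIs of batch 1 in macrophage-like and 40.3% in tumor-like cells, and 7.30% and 78.5% of those of batch 2. Of the Cadm1 and Mrc1 UMIs in cells of both batches, tumor-like cells held 9.01% and 6.04%. Whether the Mertk UMIs of tumor-like cells were their own RNA was not tested.

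Zeb2 was detected in 78.5% and Cd53 in 46.7% of the macrophage-like cells, and neither set them apart from other classes. Zeb2, the transcription factor, was at 1524 and 1796 CPM in the WT and KO libraries of batch 1, and in batch 2 at 5418, 5334, 4267 and 6951 CPM in the WT and 5205, 4404, 5072 and 6600 CPM in the KO libraries. WT and KO libraries overlapped within batch 2, and all 8 lay above batch 1. In batch 2 the order was macrophage-like (5406 ± 946 CPM, n = 8), monocyte-like (4396 ± 1367 CPM, n = 7) and pericyte-like cells (2842 ± 754 CPM, n = 8). Monocyte-like cells overlapped both of the others, while pericyte-like cells lay above the remaining classes. Dendritic-like, fibroblast-like, B-like and tumor-like cells followed, the last at 894 ± 68.2 CPM (n = 8) against 599 ± 64.2 CPM in free RNA (n = 8). In 2 of 9 libraries monocyte-like cells were higher than macrophage-like cells. Tumor-like cells held 78.1% of all Zeb2 UMIs in cells, 59.2% in batch 1 and 81.5% in batch 2.

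Cd53, the leukocyte tetraspanin, was highest in monocyte-like cells, with 2264 ± 567 CPM in batch 2 (n = 7) against 1505 ± 409 CPM in macrophage-like cells (n = 8), and was higher there in 8 of 9 libraries. T-like cells (1403 ± 309 CPM, n = 8) and dendritic-like cells (1320 ± 287 CPM, n = 7) overlapped macrophage-like cells. In macrophage-like cells it was 522 and 524 CPM in the WT and KO libraries of batch 1. The batch 2 values were 1460, 1732, 646 and 1359 CPM in WT and 1548, 1996, 1840 and 1461 CPM in KO libraries. WT 4, with 5 Cd53 UMIs, was the lowest of batch 2, and the groups overlapped. Outside leukocytes the level was near or under that of free RNA (165 ± 51.4 CPM, n = 8), for example 67.3 ± 65.4 CPM in fibroblast-like cells (n = 8) and 7.58 ± 1.98 CPM in tumor-like cells (n = 8).

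Cx3cr1, the fractalkine receptor, stood above free RNA in the macrophage-like cells of batch 1 and not in those of batch 2. In batch 1 it was 139 CPM in the WT and 133 CPM in the KO library, against 9.02 CPM in free RNA. Monocyte-like cells of batch 1 held 185 CPM in the WT and 54.2 CPM in the KO library, and macrophage-like cells were the higher of both classes in 4 of 9 libraries. In batch 2 the macrophage-like cells held 10 UMIs in 1122 cells, with 3 of 8 libraries at 0 and the highest at 78.3 CPM in KO 5+6. The mean of 27.2 CPM was under the 43.3 CPM of free RNA and is read as background. T-like cells of batch 2 held 16 Cx3cr1 UMIs, of which 14 were in KO 2+3. Their level there was 70.6 CPM, against 42.4 CPM in free RNA of that library. In T-like cells of the remaining batch 2 libraries it was at most 29.0 CPM, in KO 1.

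**Figure D2:**
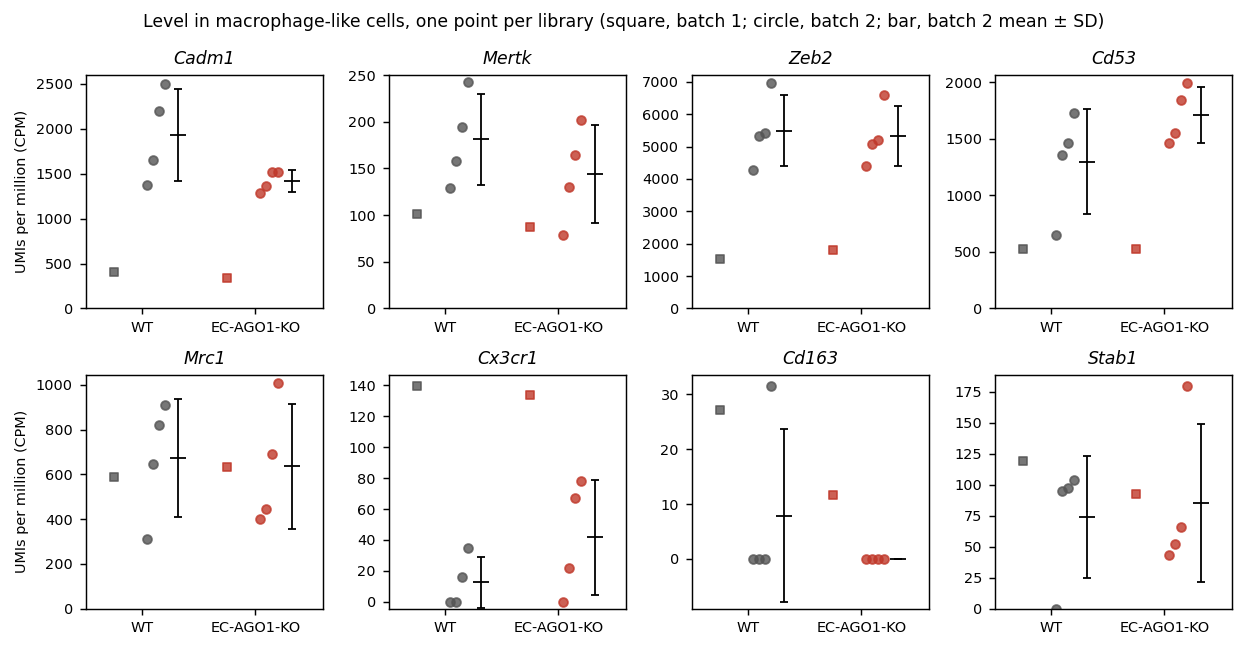
Level of each gene in CPM in macrophage-like cells, with 1 point per library for WT (gray) and EC-AGO1-KO (red), as squares for batch 1 and circles for batch 2, and the mean ± SD of the 4 libraries of batch 2 in each group. WT and KO points overlap in batch 2 for all 8 genes. For Cadm1, Zeb2 and Cd53 all points of batch 2 lie above those of batch 1, and for Cx3cr1 they lie below.

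Among the M2 markers, Mrc1 was the one with enough UMIs for most statements. Macrophage-like cells held 97.2% of the Mrc1 UMIs in cells of batch 1. In batch 2 they held 45.1%, unnamed cells 24.9% and tumor-like cells 15.8%. The mannose receptor was at 590 CPM in the WT and 635 CPM in the KO library of batch 1. In batch 2 it was 908, 312, 646 and 821 CPM in WT and 692, 401, 1010 and 443 CPM in KO libraries. Groups and batches overlapped, which sets Mrc1 apart from Cadm1, Zeb2 and Cd53 on this scale. The batch 2 mean of 654 ± 252 CPM (n = 8) was above monocyte-like cells (253 ± 230 CPM, n = 7) and dendritic-like cells (214 ± 84.1 CPM, n = 7), both with overlap. It was also above free RNA (57.2 ± 11.3 CPM, n = 8) and tumor-like cells (1.73 ± 0.579 CPM, n = 8). Within a library Mrc1 in macrophage-like cells was higher than in monocyte-like cells in 8 of 9 libraries and than in dendritic-like cells in 9 of 9. No endothelial-like cell had an Mrc1 UMI (0 of 209 cells, which allows up to 1.44%).

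Stab1, the scavenger receptor, was at 119 and 92.9 CPM in the WT and KO libraries of batch 1. In batch 2 it was 97.3, 104, 0 and 94.8 CPM in WT and 65.9, 43.4, 180 and 52.2 CPM in KO libraries, from 28 UMIs in all. WT 4 was at 0 with 28 cells, and the groups overlapped. Monocyte-like and dendritic-like cells of batch 1 had no Stab1 UMI, and neither did 569 fibroblast-like cells (up to 0.527% allowed) or 267 pericyte-like cells (up to 1.12%). Endothelial-like cells of batch 1 held 6 Stab1 UMIs in 9 cells (249 CPM) in the WT library. In the KO library they held 4 UMIs in 8 cells (128 CPM). Both levels were above macrophage-like cells and free RNA (8.99 CPM in WT and 10.7 CPM in KO) of the same library. They rest on few cells, too few to be counted in the comparisons between classes. Endothelial-like cells of batch 2, at 39.2 ± 79.9 CPM (n = 7) from 3 UMIs, could not be told from free RNA (13.8 ± 4.14 CPM, n = 8). Tumor-like cells held 21.8% of the Stab1 UMIs of batch 1 and 69.2% of those of batch 2, against 72.2% and 12.5% in macrophage-like cells, at a level of 3.65 ± 1.98 CPM in batch 2 (n = 8), below free RNA.

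Cd163, the hemoglobin scavenger receptor, was close to absent. Macrophage-like cells held 34 UMIs, of which 32 were in batch 1, with 27.1 CPM in the WT and 11.7 CPM in the KO library against 3.82 CPM in free RNA. In batch 2 the 2 UMIs were both in WT 5, and the other 7 libraries were at 0. T-like, B-like, endothelial-like, fibroblast-like and epithelial-like cells had no Cd163 UMI, for example 0 of 1396 T-like cells, which allows up to 0.215%. Cd163 was thus measurable in batch 1 alone.

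The share of cells with a UMI was set beside these levels with depth made equal. With each batch 1 cell thinned to 500 UMIs, 12.2% of 567 macrophage-like cells had a Cadm1 UMI, 3.70% one of Mertk, 50.6% of Zeb2, 23.99% of Cd53, 16.9% of Mrc1, 4.76% of Cx3cr1, 5.11% of Stab1 and 0.705% of Cd163. Before thinning the shares were 38.9%, 20.7%, 91.2%, 70.9%, 45.0%, 20.8%, 19.4% and 1.75%. Among 109 T-like cells the thinned share was 0 for Cadm1, Mertk, Mrc1, Cx3cr1 and Cd163, 3.67% for Zeb2 and 1.83% for Stab1. The share was 32.1% for Cd53, a gene T cells do make. Their median depth before thinning was 1286 UMIs, against 2776 in the macrophage-like cells. The 100 monocyte-like cells had Zeb2 in 60.0%, Cd53 in 35.0% and Cadm1 in 1.00%, and 15.9% of 233 tumor-like cells had Zeb2. In batch 2 only 39 of 1122 macrophage-like cells reached 500 UMIs. At 250 UMIs, which 803 of them reached, Cadm1 was in 26.9%, Zeb2 in 67.5%, Cd53 in 30.6%, Mrc1 in 12.2% and Mertk in 3.61%, and in batch 1 at the same depth in 8.58%, 33.5%, 13.0%, 7.88% and 1.58%. At 250 UMIs Cadm1 was in 1.41% of 995 T-like cells of batch 2 and Mrc1 in 0.603%.

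Within the macrophage-like cells of batch 1 the markers were high in different sub-clusters, which were made without the 8 genes. The sub-cluster led by Ccl8, Cbr2, Folr2 and Gas6 (94 cells, 50 from WT) had, with both libraries pooled, the highest level of Mrc1 (1288 CPM, in 83.0% of cells), Stab1 (229 CPM, in 47.9%) and Mertk (164 CPM, in 43.6%), and all 32 Cd163 UMIs of the batch's macrophage-like cells, in 10.6% of its cells. In the KO library alone its Mrc1 level, 1403 CPM, was under the 1458 CPM of the group led by Mmp12. Its Cadm1 level was 321 CPM. Thus a gene of the tissue-resident set, Mertk, was highest beside the M2 genes.

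Cadm1 and Cx3cr1 were high elsewhere. The sub-cluster led by Jam3, Rnf144b and Egr1 (106 cells) had 623 CPM of Cadm1, 223 CPM of Cx3cr1 and 122 CPM of Mertk, and that led by histone genes and Top2a, genes of dividing cells (30 cells), had 687 CPM of Cadm1 and 275 CPM of Cx3cr1. Mrc1 was also high, at 997 CPM, in 51 cells led by Mmp12, Pdpn, Arg1 and hemoglobin genes, where Cadm1 was 222 CPM and Cd163 had no UMI. Its libraries differed, with 733 CPM of Mrc1 and 293 CPM of Cadm1 in WT and 1458 and 96.1 CPM in KO. Hemoglobin RNA is not made by macrophages, and its part in this group was not tested. The sub-clusters led by the interferon-induced genes Rsad2 and Ifit3 (98 cells) and by Cxcl9 and MHC class II genes (97 cells) were low in both, with Cadm1 at 224 and 211 CPM and Mrc1 at 179 and 211 CPM. Zeb2 and Cd53 varied less, from 1135 to 2047 CPM and from 354 to 663 CPM.

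Monocyte-like cells of batch 1 fell into 2 groups that Cx3cr1 told apart. The 44 cells led by Ace, Adgre4 and Ear2, genes known from patrolling monocytes, had 306 CPM of Cx3cr1 in WT and 119 CPM in KO, from 13 and 4 UMIs, with Mrc1, Mertk, Stab1 and Cd163 at 0. The Jam3 group had 250 and 206 CPM. The 56 cells led by Chil3 and Vcan had, with both libraries pooled, 52.7 CPM of Cx3cr1 and 42.2 CPM of Mrc1. In batch 2 the 5 macrophage-like sub-clusters (53 to 321 cells) had 1285 to 1934 CPM of Cadm1, 479 to 741 CPM of Mrc1 and 1340 to 2224 CPM of Cd53, and Cd163 had its 2 UMIs in the largest of them.

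**Figure D3:**
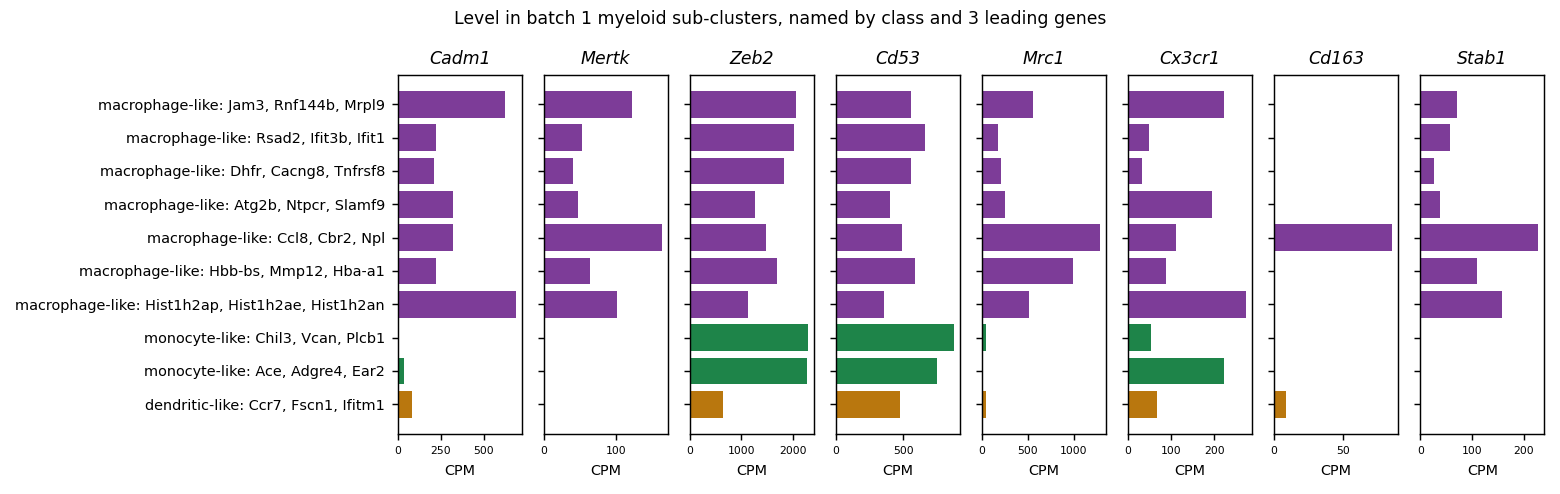
Level in CPM of each of the 8 genes in the myeloid sub-clusters of batch 1, with the libraries pooled, as bars colored by cell class and named by 3 leading genes. The Ccl8 group of 94 cells is highest in Stab1, Mertk, Cd163 and, in the pooled values, Mrc1, while Cadm1 is highest in the histone and Jam3 groups.

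Co-detection was counted in the same macrophage-like cells, so it is not separate evidence for the sub-clusters, and numbers were low. The number of cells with both genes of a pair was set against the number given by the 2 shares within each library and quartile of cell depth. Of the 25 pairs with at least 5 expected cells in batch 1, 16 were above 1, with a median ratio of 1.02 and a range from 0.334 to 1.44. All 10 cells with Cd163 also had Mrc1, against 6.95 expected. Mrc1 and Stab1 were together in 79 cells against 66.2 expected, Mertk and Mrc1 in 82 against 68.9, and Cx3cr1 and Stab1 in 40 against 30.0. Cadm1 went with Mertk (67 against 58.5) and Cx3cr1 (69 against 58.4), and was with Mrc1 in 123 cells against 127.8 expected. Cadm1 and Cd163 shared 2 cells against 5.98 expected. Pairs with Zeb2, which nearly every cell had, stayed between 0.991 and 1.04.

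The excess was small and changed with depth. With the cells of batch 1 thinned to 500 UMIs, 6 of 12 pairs were above 1 and the median ratio was 0.988. With the 431 deepest cells thinned to 2000 UMIs, Mrc1 and Stab1 were together in 47 cells against 31.2 expected, a ratio of 1.51, and Cx3cr1 and Stab1 in 19 against 12.9. Cadm1 and Mrc1, under the expected number before thinning, were then in 79 cells against 76.3, and at 500 UMIs in 12 against 11.7. In batch 2, 8 of 15 pairs were above 1, with a median of 1.00. Mertk and Mrc1, in 12 cells against 7.47 expected, had the highest ratio there, 1.61, and Cadm1 and Mrc1 were in 42 cells against 48.5. In batch 1, 26.1% of macrophage-like cells had UMIs of 2 of the 8 genes, 1.05% of 7 and none of all 8, and 1.23% had none of the genes. In batch 2, 37.3% had 1 of the genes, 11.4% had none and no cell had more than 5.

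**Figure D4:**
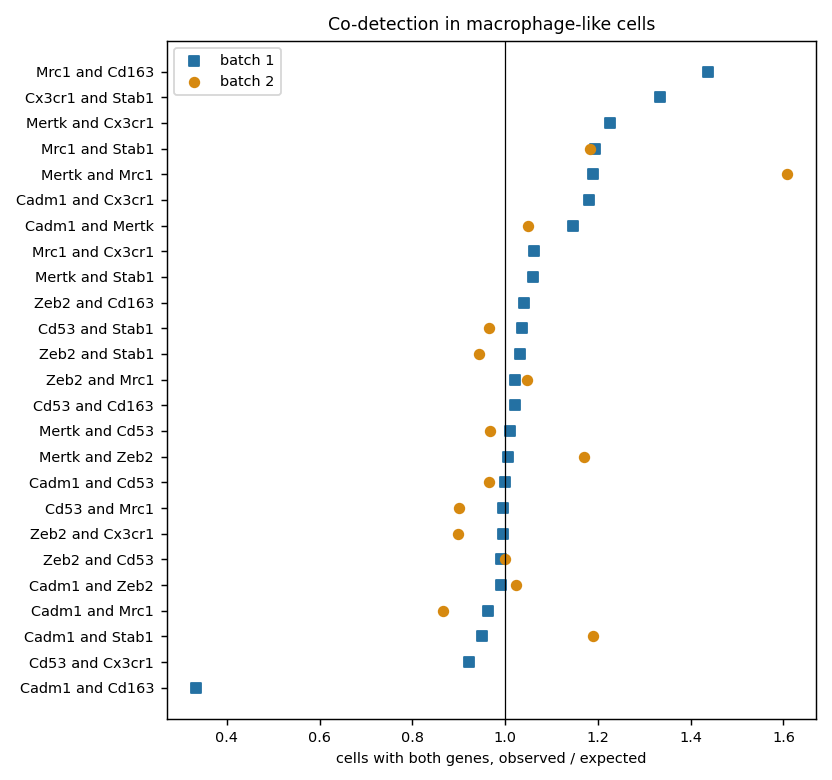
Observed over expected number of macrophage-like cells with UMIs of both genes of each pair, within library and quartile of depth, for batch 1 and batch 2, where at least 5 cells were expected. In batch 1 the ratios run from 0.334 for Cadm1 with Cd163 to 1.44 for Mrc1 with Cd163, and most lie near 1.

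The genes whose levels ran most like each marker were sought over 84 sums of a library and class, on log2(CPM + 10), among 6807 genes. These sums share libraries, depth and cell classes, so the coefficients describe the classes more than the single genes. Cd53 ran with Ptprc (Pearson r = 0.89), the CD45 gene of leukocytes, Dock2 (0.88) and Srgn (0.87). Zeb2 ran with Cdk14 (0.77) and Dennd1a (0.76), Cadm1 with Rbm47 and Apobec1 (both 0.74), and Mrc1 with Osbpl8 (0.73) and Basp1 (0.73). Mertk ran with Fcgr4 (0.68), a receptor for IgG, and Vcam1 (0.65), and Stab1 with the complement gene C1qa (0.65) and Lair1 (0.60). Between markers the highest values were those of Cadm1 with Mrc1 (0.67) and Zeb2 with Mrc1 (0.67), whereas Cx3cr1 reached no more than 0.19 with any other member.

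The comparison of KO with WT tumors asked whether endothelial AGO1 loss went with other levels of these genes in macrophages. UMIs of macrophage-like and monocyte-like cells were summed in each library and tested by edgeR's quasi-likelihood test with batch as a covariate. Of 2046 genes tested, 0 were called at an adjusted p below 0.05 (0% of genes), 79 had an unadjusted p below 0.05, and DESeq2 also called 0. Cadm1, Zeb2, Cd53 and Mrc1 had enough UMIs to be tested, and 0 of these 4 were called. Cadm1 differed most, by -0.39 ± 0.17 (log2 KO against WT ± SE, edgeR adjusted p = 0.996), and was 1 of the 79 genes. In these sums of batch 2 it was 1433, 2114, 1999 and 1205 CPM in WT 1, WT 3, WT 4 and WT 5, and 1260, 1198, 1148 and 988 CPM in KO 1, KO 2+3, KO 4 and KO 5+6. WT 5, the lowest WT library, was under 1 of the 4 KO libraries. Mrc1 differed by -0.17 ± 0.20, Zeb2 by -0.08 ± 0.18 and Cd53 by 0.13 ± 0.17, all with an adjusted p of 0.996 in edgeR. Zeb2 turned positive (0.05) without a filter on low counts. The other 4 genes were too sparse for the filter. Without it, Mertk was at -0.25 ± 0.33 (edgeR adjusted p = 0.851), Stab1 at -0.19 ± 0.36 (0.934), Cx3cr1 at 0.01 ± 0.40 (0.993) and Cd163 at -1.19 ± 0.60 (0.768). In a simulation of this comparison 200 genes were given a log2 change of 2, of which 152 passed the filter and 148 were found. The simulated counts had 1 spread for all genes and no batch difference. The simulation therefore does not tell how many such changes would be found in the real libraries. Smaller changes were not simulated.

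RNA of other cells in these sums differed between batches. The tumor marker list stood at 3.98% and 4.80% of its level in tumor-like cells in batch 1 and at 8.33% to 16.5% in batch 2, and monocyte-like cells made up 9.68% to 29.3% of the cells summed. Their part in the differences was not tested. Wider lists of macrophage genes were read beside the 8 members. Of 20 further tissue-resident genes 10 were tested and 0 were called, with a median of 0.05 against -0.04 over all genes. The complement genes C1qb, C1qc and C1qa, the most abundant of them, were at 0.25 ± 0.25, 0.16 ± 0.25 and 0.12 ± 0.24. Of 15 further M2 genes 4 were tested and 0 were called, with a median of -0.14, and Tgfb1 was at -0.24 ± 0.24, the scavenger receptor Msr1 at -0.05 ± 0.24 and the interleukin-1 antagonist Il1rn at 0.00 ± 0.26.

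Sums over whole libraries needed no naming of cells. There, fewer cells of a type and less RNA per cell cannot be told apart. Of 14181 genes, 0 were called (0% of genes) by edgeR, with 1313 at an unadjusted p below 0.05, and DESeq2 called 2, Gata3 and March1, which lie outside the set and were picked from the result. All 8 members were tested and 0 were called. Cd53 differed most, by 0.82 ± 0.33 (edgeR adjusted p = 0.494), and was 1 of the 1313 genes. Its levels were 82.0, 39.9, 51.2, 16.0 and 40.5 CPM in the WT libraries, batch 1 first and then in ascending number, and 103, 37.7, 157, 63.5 and 46.4 CPM in the KO libraries in the same order. KO 2+3 was the highest and WT 4 the lowest, and the remaining values of the groups overlapped. KO 2+3 also held 304 macrophage-like and 538 T-like cells, the most T-like cells of any library, and WT 4 held 28 and 37. Without KO 2+3 the difference was 0.32 (edgeR adjusted p = 0.830), while with no filter on low counts it was called (0.80, edgeR adjusted p = 1.36e-05). The share of these cells in the Cd53 difference was not tested.

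The other members differed by less in whole libraries. Stab1 was at 0.45 ± 0.29, Cx3cr1 at 0.34 ± 0.20, Cadm1 at 0.31 ± 0.24, Mrc1 at 0.20 ± 0.25, Zeb2 at 0.04 ± 0.10, which turned to -0.01 without WT 4, Mertk at -0.28 ± 0.19 and Cd163 at -0.81 ± 0.46, with edgeR adjusted p from 0.604 to 0.947. Of the further tissue-resident genes 18 were tested, 0 were called and the median was 0.21, with C1qb at 0.72 ± 0.22 (edgeR adjusted p = 0.443). Of the further M2 genes 10 were tested, 0 were called and the median was 0.31, against -0.0044 over all genes.

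Tumor-like cells held many UMIs of some members and were compared in the same way. Of 12844 genes, 1 was called by edgeR (0.00779% of genes), the beta-globin gene Hbb-bs at -4.08 ± 0.59 (adjusted p = 0.0284), which also lies outside the set. That call was lost without the batch 1 library of WT or of KO, without WT 3 or without KO 1. DESeq2 called 1 other gene, Ifit1. Of the 7 members tested 0 were called. Stab1 differed most, by 0.71 (edgeR adjusted p = 0.897), and Zeb2, whose UMIs were mostly there, was at 0.03.

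The batches differed far more than the genotypes, and the 8 markers did not move together. In macrophage-lineage sums 1403 of 2046 genes were called between batch 2 and batch 1 (68.6% of genes), 32.4% of all higher and 36.2% lower, so a call is common and says little of a member. With TMM scaling Cadm1 was higher in batch 2 by 0.72 ± 0.19 (edgeR adjusted p = 0.000483) and Mrc1 lower by -1.24 ± 0.19 (edgeR adjusted p = 9.32e-09). Zeb2 (0.35 ± 0.22, edgeR adjusted p = 0.153) and Cd53 (0.38 ± 0.19, edgeR adjusted p = 0.0704) were not called, though Cd53 was called without WT 4 (adjusted p = 0.0329). The scaling decided these values. On library totals the median over all genes moved up by 1.29, from 0.12 to 1.41, the share of higher genes among the calls went from 47.2% to 72.2% (93.1% of genes called), Cadm1 was at 2.04, Cd53 at 1.70 and Zeb2 at 1.66, all called, and Mrc1 turned to 0.07 (edgeR adjusted p = 0.750). Without the filter on low counts and with TMM, 5712 of 18043 genes were called. There, Cx3cr1 (-3.35 ± 0.40, edgeR adjusted p = 8.53e-16), Cd163 (-2.28 ± 0.71, adjusted p = 0.00578) and Stab1 (-1.49 ± 0.35, adjusted p = 0.000114) were lower in batch 2. Mertk was at -0.60 ± 0.32 (adjusted p = 0.141). On library totals the batches overlapped for Stab1, at 106 and 86.1 CPM in batch 1 and 46.7 to 153 CPM in batch 2. They also overlapped for Cd163, at 24.1 and 10.9 CPM against 0 to 25.4 CPM. Cx3cr1, at 145 and 128 CPM against 0 to 57.4 CPM, did not overlap.

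Most other macrophage genes that could be tested were lower in batch 2. A gene could pass the filter on low counts through the 2 libraries of batch 1 alone. The 10 of 20 tissue-resident and 4 of 15 M2 genes tested may thus be those high in batch 1. Their direction does not describe the whole lists. The same filter applied to the genes compared by span below. All 10 tissue-resident genes tested were called lower with TMM, with a median of -3.23 (on library totals 6 lower and 2 higher, median -1.95), and C1qb was at -5.09 ± 0.21, C1qa at -4.53 ± 0.20 and C1qc at -4.41 ± 0.21. All 4 M2 genes tested were called lower with a median of -2.35 (on library totals 3, median -1.06), among them Il1rn at -2.92 ± 0.25, Tgfb1 at -2.78 ± 0.22 and Msr1 at -1.92 ± 0.22. The batch difference ran with the span of the gene. Of 439 genes with a span up to 10 kb, 85.0% were called lower, with a median of -4.29, and of 568 genes over 100 kb 5.46% were called lower and 51.1% higher, with a median of 0.55. Across genes, which are not independent replicates, Spearman's rho between span and batch difference was 0.59. Cadm1, with the longest span of the members, was among the higher genes, and Zeb2, at 134 kb, was not called (0.35). Mrc1, at 103 kb, was lower with TMM (-1.24) and near 0 on library totals (0.07). With TMM and no filter on low counts, Cx3cr1, at 168 kb, was lower (-3.35). Mertk, at 104 kb, was at -0.60 there and not called. The batches also differ in sequencer, in depth per cell and in the share of Actb, and with 2 libraries in batch 1 these cannot be told apart.

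**Figure D5:**
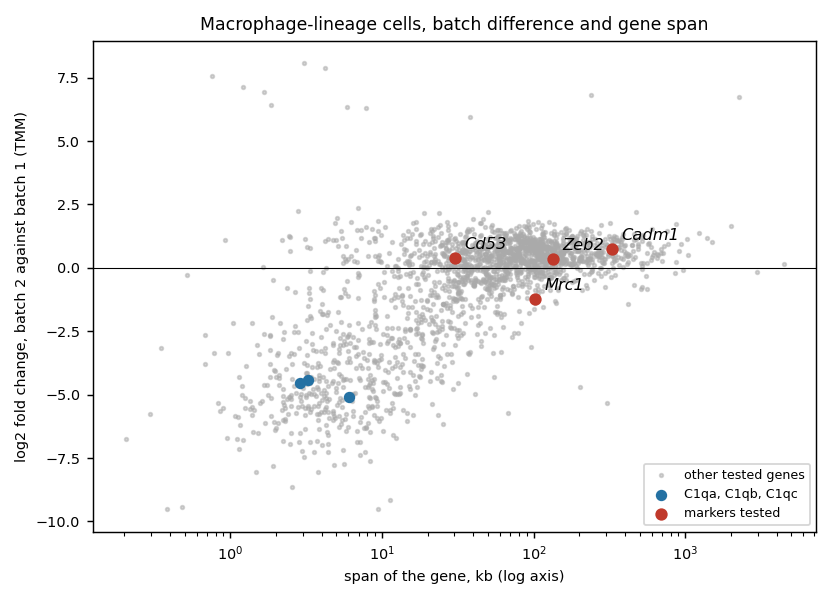
Log2 difference of batch 2 against batch 1 in macrophage-lineage cells (edgeR, TMM) against the transcribed span of each gene in kb (log axis), with 1 point per gene tested, the 4 members tested in red and C1qa, C1qb and C1qc in blue. Genes under 10 kb lie mostly below 0, with a median of -4.29, Cadm1 lies above 0 and Mrc1 below the bulk of genes of its span.

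In tumor-like cells, a comparison added after the data had been seen, 9726 of 12844 genes were called between batches (75.7% of genes). Cd53 (1.48, edgeR adjusted p = 0.000797), Cadm1 (1.47, adjusted p = 0.00304) and Zeb2 (0.89, adjusted p = 1.72e-05) were higher in batch 2 and Cx3cr1 was lower (-0.84, adjusted p = 0.0134). Cadm1 and Cx3cr1 lost their calls without the WT library of batch 1 (adjusted p = 0.0635 and 0.125). Cd53, Cadm1 and Cx3cr1 stood below free RNA in these cells. Mertk (0.32), Mrc1 (-0.05, which was 0.06 on library totals) and Stab1 (-0.51) were not called. Whether the KO against WT difference itself differed between the batches was tested with an interaction term in the macrophage-lineage sums. Of 2703 genes 0 were called (0% of genes) by edgeR, with 64 at an unadjusted p below 0.05, and DESeq2 was not run for this term. Of the 5 members tested, Cd53 was at 0.50 ± 0.42, Mrc1 at -0.31 ± 0.42 and Cadm1 at -0.08 ± 0.41. In the simulation, made in the same way, this test found 4.50% of the genes changed by 2 on the log2 scale. Its 0 calls therefore say little about a difference of that size.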

How the data were processed

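The deposited values are UMI counts without normalization for every barcode, empty droplets included, which the authors made with Cell Ranger 7.1.0 (submitters' processing notes) on mm10 from 3-prime droplet libraries. The authors' later normalization, integration and cell names were not used here. Cells were clustered in 3 rounds, the third on myeloid cells within each batch (scanpy 1.11.5, Leiden resolution 1, 2000 variable genes, 30 components, 15 neighbours) without the 8 members and Actb, and given a name where 3 or more markers of a list passed. The naming thresholds were set after clusters had been seen. No doublet caller was run, and some named clusters also passed markers of another class, among them B-like, endothelial-like and pericyte-like cells and the Ace group of monocyte-like cells. UMIs were summed per library and class of at least 10 cells, so a library is the sample, and p-values measure the spread between these libraries. Tests used edgeR 4.0.16 (quasi-likelihood, TMM, filterByExpr, batch or genotype as covariate, Benjamini-Hochberg) in R 4.3.3, with DESeq2 1.42.0 as an alternative, and were tested on simulated data. SEs come from the fold change and F statistic. Intervals and limits cover counting error only. Batch 2's depth limits sparse genes. The members and lists were chosen with earlier results of these data known, and the study used Cadm1, Mertk, Zeb2, Cd53 and Mrc1 as subset markers in these samples, so their counts are not independent evidence. Named genes were the 8 members, the 3 most abundant genes of each list and the 3 nearest by correlation. Libraries of batch 2 with the same replicate number were not treated as pairs in the main tests. After group means were taken off, r was -0.226 for WT 1 with KO 1 and -0.253 for WT 4 with KO 4. These 2 values cannot exclude a pairing by litter or cage.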

Additional observations from a re-analysis of the deposited data

Results flagged for a closer look

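Of 32 groups of 5 libraries examined (each member, genotype and kind of sum), 13 held a library whose gap to the nearest other exceeded 0.71 of the group's range, where chance gives about 1 in 20 groups. Of these, 12 were libraries of batch 1, the only one of its batch in each group. In macrophage-like cells they were Cadm1 in the KO library (344 CPM, nearest 1279), Cx3cr1 in the WT library (139 CPM, nearest 34.6) and Cd163 in the KO library (11.7 CPM, the others at 0). In whole libraries they were Zeb2 in KO (654 CPM), Mrc1 in WT (65.3 CPM) and KO (93.7 CPM), Cx3cr1 in WT (23.3 CPM) and KO (26.2 CPM), Cd163 in WT (3.05 CPM) and KO (1.84 CPM) and Stab1 in WT (17.2 CPM) and KO (19.0 CPM). Zeb2 and Cadm1 were lower and the others higher than in batch 2. Macrophage-like cells were 26.4% of the cells in batch 1 and 1.78% in batch 2, and their part in the whole-library values was not tested. The remaining library was WT 4, with Stab1 at 0 CPM in 28 macrophage-like cells (nearest 94.8).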

How the results depend on the processing

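For KO against WT in macrophage-lineage cells, 0 genes were called by edgeR, by DESeq2, without a batch term, on library totals, in macrophage-like cells alone, with cells chosen by C1q UMIs (6 libraries and 106 genes left) and at resolution 0.5, used in the later clustering rounds alone because it merged myeloid and tumor cells of batch 2 in the first. Without a filter 13 were called and in batch 2 alone 2 (Prdx1 and Pdpn, lower). Leaving out 1 library gave 0 to 4, with 4 (Pdpn, Hmox1, Dnase1l3 and Cd74) without either library of batch 1, 3 (Chst11, Hmox1 and Mmp12) without KO 5+6, and 1 without WT 3, WT 4 or KO 1. No member was among those named. Zeb2 reversed to 0.048 without a filter and to 0.058 without WT 5 (-0.15 to 0.058 over the libraries left out). Without KO 2+3 Mrc1 moved to -0.021 (lowest -0.31 without KO 4) and Cd53 to 0.044 (highest 0.31 without KO batch 1), and whole-library Cadm1 to 0.024 (highest 0.44 without KO 5+6). None was called. With the replicate block over 3 numbered pairs 0 genes were called in this comparison and in whole libraries, while Zeb2 (0.14) and Mrc1 (0.0058) reversed in the former. The paired fit changed no call. In whole libraries DESeq2 called 2 genes, no filter 242, and leaving out 1 library 0 to 1 (Hbb-bs without KO 2+3, Gata3 without KO 4). Zeb2 reversed to -0.0095 without WT 4 (highest 0.071). In tumor-like cells no filter gave 44 calls and leaving out 1 library 0 to 1. Cadm1 there reversed without 4 libraries in turn (-0.085 to 0.21 over all) and Zeb2 without WT 4 or WT 5 (-0.014 to 0.051). Between batches, macrophage-lineage calls were 5712 of 18043 genes without a filter and 1189 to 1427 with 1 library left out, and tumor-like calls 8216 to 9902. Mrc1 reversed on library totals (0.066 in macrophage-lineage, 0.058 in tumor-like cells) and in tumor-like cells with 1 of 4 libraries left out (-0.21 to 0.036 over all). The causes were not tested. Depth limits Cd163, Cx3cr1, Stab1 and Mertk in batch 2.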

Other observations

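The 8 genes were also present in cells that carried no class name. In batch 2, 33 cells led by Siglech, Ccr9, Runx2 and Tfrc, of which Siglech and Ccr9 are known from plasmacytoid dendritic cells, had 2157 CPM of Cd53 and 2466 CPM of Zeb2, with 103 CPM of Cadm1 and no UMI of Mertk, Mrc1, Cx3cr1, Cd163 or Stab1. A group of 90 cells led by the tumor marker Pvt1 with Wwtr1 and Cdh13, found among the myeloid cells and left unnamed, had 1231 CPM of Zeb2, 144 CPM of Cadm1 and 64.0 CPM each of Cd53 and Mrc1. All unnamed cells together held 22.1% of the Cadm1 UMIs of batch 2, and 1 of the 668 of batch 1.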
